A study of Rattus norvegicus with 18 samples.

Results

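Inositol trisphosphate 3-kinases and phospholipases C are enzymes at opposite ends of the same calcium messenger, and 9 of their genes were followed here through subarachnoid hemorrhage (SAH) in the rat cortex. The 9 genes, of 30735 in the count table, were the kinases Itpka, Itpkb and Itpkc and the phospholipases Plcb1, Plcb2, Plcb4, Plcd1, Plce1 and Plcg2, found by their symbols. They had been chosen by their measured counts in these same libraries, above all their change between sham and SAH, so that genes higher after hemorrhage could be set against genes of neurons. Their levels and changes are therefore described without a p-value, and a gene is said to be called where it passed the threshold of the fit over all genes. The study bled the brain of adult Sprague Dawley rats by pushing a filament through the wall of an intracranial artery, and sham rats had the operation without the perforation. Cortex was taken 1 day (SAH 1d) or 7 days (SAH 7d) after hemorrhage, with 6 rats in each of the 3 groups and 1 RNA library per rat. The genotype was not modified and the sex of the rats was not given. The labels named bilateral cortex and mice, whereas the methods named the whole cortex of the operated side and rats, and the gene identifiers were those of rat.

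As background, phospholipase C splits the membrane lipid PIP2 into diacylglycerol and inositol trisphosphate (IP3), which opens IP3 receptors and releases calcium from stores. IP3 3-kinases add a phosphate to IP3 and so end that signal while making IP4. The beta forms of phospholipase C answer Gq-coupled receptors, the gamma forms answer tyrosine kinases, the epsilon form answers Ras GTPases, and the delta forms answer calcium itself. In the cortex this pathway is best known downstream of metabotropic glutamate and muscarinic receptors in neurons and of immune receptors in microglia.

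Each library held 27270026 to 38271014 counts. In the comparison of SAH 1d with sham, edgeR's quasi-likelihood test with Benjamini-Hochberg adjustment called 4684 of 18444 genes at an adjusted p under 0.05, 2748 of them higher and 1936 lower, and limma on log2(FPKM + 1) called 3678 higher and 983 lower. Library SAH 7d-5 was the highest or lowest of its group for 75.5% of genes and SAH 1d-3 for 68.3%, against 17.4% to 50.9% in the other 16 libraries, so results that rest on either are also given without it. Markers listed for cortical excitatory neurons, some of them shared by other neurons, summed to 4277 to 7140 CPM (counts scaled to library size) in sham. Snap25 alone held 2356 to 4409 CPM of this sum. Of these markers 7 of 7 were lower in SAH 7d-5 than in the other SAH 7d libraries. Markers of striatum were also present, at 357 to 1534 CPM in sham. Markers of choroid plexus summed to 3.43 to 67.8 CPM in sham and reached 1058 CPM in SAH 1d-6. They were high in SAH 1d-4 as well, where Ttr alone had 640 CPM.

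Per length of transcript, the 9 genes spanned a wide range in sham cortex. Itpka led with 69.7 ± 10.2 FPKM (SD, n = 6), followed by Plcb1 at 46.0 ± 6.14 and Plcb4 at 16.9 ± 3.09 FPKM. Plcd1 (4.59 ± 0.932), Itpkc (3.78 ± 0.328) and Itpkb (3.55 ± 0.623) formed a middle group in FPKM whose ranges overlapped from each to the next. Plcg2 at 0.758 ± 0.144, Plce1 at 0.407 ± 0.0811 and Plcb2 at 0.170 ± 0.0648 FPKM followed without overlap between neighbours. Itpka was above Plcb1 in 6 of 6 sham libraries although the ranges of the levels overlapped. At SAH 1d the order changed in the middle, with Plcd1 (11.7 ± 0.405 FPKM) above Plcb4 (11.2 ± 1.17 FPKM) in 4 of 6 libraries, so that these neighbours did not differ beyond their spread.

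Among the kinases, Itpka was lower at SAH 1d whereas Itpkb and Itpkc were higher. Itpka, whose protein also bundles actin in dendritic spines, ranged from 106 through a median of 142 to 152 CPM in sham. The same gene gave 57.5, 67.5 and 89.1 CPM as lowest, median and highest at SAH 1d, and 25.0, 122 and 137 CPM at SAH 7d. Every SAH 1d library was below every sham library, while at SAH 7d 5 of 6 libraries were back within the sham range and SAH 7d-5 alone was under all others. The log2 fold change of Itpka was -0.91 (SE 0.12) at SAH 1d against sham and -0.32 (SE 0.30) at SAH 7d against sham, and the second value was -0.11 (SE 0.09) without SAH 7d-5. The markers listed for excitatory neurons moved beside it. Their sum, most of it Snap25, had a median of 6065 CPM in sham and 3584 CPM at SAH 1d. The lowest sham value was 4277 CPM and the highest SAH 1d value 4285 CPM. Of the 7 genes 3 did not overlap, Camk2a, Neurod6 and Snap25. The inhibitory neuron markers had a median of 896 CPM in sham and 765 CPM at SAH 1d, and 0 of 5 were below every sham library. The striatum markers had a median of 860 CPM in sham and 411 CPM at SAH 1d, where they ranged from 151 to 689 CPM and overlapped sham, and 1 of the 6 genes was below every sham library. The part of these lists in the level of Itpka was not tested. Because whole tissue was sequenced, fewer cells of a type and less RNA per cell cannot be told apart.

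Itpkb, an IP3 3-kinase best known from lymphocyte development, had 11.4, 15.2 and 20.1 CPM as lowest, median and highest in sham. At SAH 1d the values were 24.1, 34.2 and 46.5 CPM, all above sham, and at SAH 7d they were 16.6, 19.8 and 34.6 CPM. The highest SAH 7d value was that of SAH 7d-5, and 3 of 6 SAH 7d libraries were above all sham libraries. The log2 fold change was 1.18 (SE 0.17) at SAH 1d and 0.54 (SE 0.19) at SAH 7d against sham, the latter 0.36 (SE 0.14) without SAH 7d-5.

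Itpkc, the third IP3 3-kinase and one known to act in T cell calcium signaling, gave 11.6, 13.7 and 14.8 CPM as lowest, median and highest in sham. At SAH 1d the values were 15.8, 18.6 and 66.0 CPM, and at SAH 7d 13.8, 14.3 and 17.6 CPM. All 6 SAH 1d libraries were above all 6 sham libraries, but 66.0 CPM in SAH 1d-3 and 33.4 CPM in SAH 1d-5 stood over the others, which reached at most 19.5 CPM. The log2 fold change at SAH 1d against sham was accordingly 1.08 (SE 0.32) with SAH 1d-3 and 0.63 (SE 0.17) without it. The call of Itpkc was lost when sham-5 or sham-6 was left out.

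The RefSeq table of promoter windows (build GRCr8) held 6 of the 9 genes, and 4 of them are shown. They stand for the opposite directions at SAH 1d and for Plcg2, whose higher mean at SAH 7d rested largely on SAH 7d-5 (25.9 CPM). The windows of Itpkb and Plcb4 lay inside the span that RefSeq gives these genes, before another start, and are not shown. The entries not found were Itpka, Plcb2 and Plce1. Each sequence is the 250 bases before the start, read 5′ to 3′ on the strand of the gene, and capitals mark matches to the searched letters of NF-kB, STAT, ETS or TATA box motifs. Itpkc (chr1:91650183-91650432, minus strand) and Plcd1 (chr8:127695940-127696189, minus strand) were higher at SAH 1d, Plcb1 (chr3:142512515-142512764, plus strand) was lower, and Plcg2 (chr19:62455946-62456195, plus strand) was highest on average at SAH 7d.
Itpkc: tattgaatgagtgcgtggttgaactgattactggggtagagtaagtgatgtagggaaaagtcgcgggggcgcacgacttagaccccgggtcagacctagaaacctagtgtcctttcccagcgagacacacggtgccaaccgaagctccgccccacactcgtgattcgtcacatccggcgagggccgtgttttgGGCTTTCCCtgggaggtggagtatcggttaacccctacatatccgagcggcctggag
Plcd1: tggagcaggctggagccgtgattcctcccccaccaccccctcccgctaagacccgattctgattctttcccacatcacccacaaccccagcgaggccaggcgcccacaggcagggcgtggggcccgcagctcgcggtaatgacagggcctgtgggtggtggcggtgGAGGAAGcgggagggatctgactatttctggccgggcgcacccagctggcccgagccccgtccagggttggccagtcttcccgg
Plcb1: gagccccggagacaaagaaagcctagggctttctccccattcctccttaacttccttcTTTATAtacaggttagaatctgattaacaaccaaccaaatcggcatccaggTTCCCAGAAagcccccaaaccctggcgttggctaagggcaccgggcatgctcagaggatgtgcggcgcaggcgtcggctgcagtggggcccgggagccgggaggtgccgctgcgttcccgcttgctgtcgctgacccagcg
Plcg2: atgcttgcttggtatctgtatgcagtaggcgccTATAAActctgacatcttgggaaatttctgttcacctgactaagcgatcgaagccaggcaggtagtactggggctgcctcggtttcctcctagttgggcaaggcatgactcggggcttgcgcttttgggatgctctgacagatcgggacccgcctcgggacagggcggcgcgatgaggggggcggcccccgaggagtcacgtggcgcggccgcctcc

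Both strands were searched for AP-1 (TGANTCA), STAT (TTCNNNGAA), CRE (TGACGTCA), NF-kB (GGGANNNCC), GC box (GGGCGG), ETS (GAGGAAG) and TATA box (TATAAA), the GC box left in lower case. The window of Itpkc held 1 NF-kB match from -57 to -49 and 1 GC box, that of Plcd1 an ETS match from -84 to -78, and that of Plcb1 a STAT match from -141 to -133 and a TATA box match from -192 to -187. Plcg2 held a TATA box match from -217 to -212 and 2 GC boxes. Of 33469 rat windows of this length, 15.5% held the NF-kB letters, 10.2% ETS, 7.67% STAT, 12.9% TATA box and 30.5% GC box. AP-1 letters were in 6.34% and CRE letters in 1.59% of all windows and in none of these 4. These matches describe letters and not bound sites.

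Of the phospholipases C, the neuronal forms were lower at SAH 1d. Plcb1, the main Gq effector of cortical pyramidal cells, ranged from 197 through 228 to 269 CPM in sham, from 68.9 through 131 to 140 CPM at SAH 1d and from 52.2 through 193 to 210 CPM at SAH 7d. All SAH 1d libraries were under all sham libraries, and the lowest of each SAH group were SAH 1d-3 and SAH 7d-5. Its log2 fold change was -0.96 (SE 0.16) at SAH 1d, -0.84 (SE 0.10) without SAH 1d-3, and -0.47 (SE 0.26) at SAH 7d against sham, which became -0.28 (SE 0.11) without SAH 7d-5. Plcb4, a Gq effector best known from the thalamus, the retina and Purkinje cells, gave 74.2, 94.5 and 113 CPM in sham as lowest, median and highest, and 50.0, 54.9 and 67.9 CPM at SAH 1d. At SAH 7d it was the most scattered of the 3 lower genes once SAH 7d-5 was set aside, with 46.0 CPM in SAH 7d-2 and 116 CPM in SAH 7d-4. The log2 fold change of Plcb4 was -0.71 (SE 0.12) at SAH 1d and -0.25 (SE 0.25) at SAH 7d against sham, the latter -0.11 (SE 0.20) without SAH 7d-5.

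Plcd1 and Plce1 were higher at SAH 1d. Plcd1, the calcium-activated delta form, had 8.88, 14.6 and 16.3 CPM as lowest, median and highest in sham and 30.0, 32.2 and 33.5 CPM at SAH 1d. Relative to its mean it had the smallest spread of the 9 genes at SAH 1d, and SAH 1d-3, which stood apart for other members, was within the range of the other SAH 1d libraries. At SAH 7d the values were 12.8, 15.8 and 28.7 CPM, the highest in SAH 7d-5. The log2 fold change was 1.24 (SE 0.13) at SAH 1d and 0.39 (SE 0.21) at SAH 7d against sham, or 0.21 (SE 0.16) at SAH 7d without SAH 7d-5. Plce1, the Ras effector, had 3.37, 4.45 and 6.19 CPM in sham, 7.58, 10.4 and 20.7 CPM at SAH 1d, and 3.93, 6.79 and 10.7 CPM at SAH 7d. Sham and SAH 1d did not overlap, and the highest values of the SAH groups were again SAH 1d-3 and SAH 7d-5. Plce1 had a log2 fold change of 1.33 (SE 0.24) at SAH 1d, or 1.07 (SE 0.16) without SAH 1d-3, and of 0.60 (SE 0.23) at SAH 7d against sham, or 0.43 (SE 0.20) without SAH 7d-5. The 6 astrocyte markers summed to 2083 to 3811 CPM in sham and 4514 to 5681 CPM at SAH 1d, but the higher sum was that of 1 gene, Gfap, at 285 to 540 CPM in sham and 2242 to 3767 CPM at SAH 1d. The other 5 overlapped sham, and the part of this list in the levels was not tested.

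Plcb2 and Plcg2, the forms best known from blood cells and, for Plcg2, from microglia downstream of TREM2, were scarce in sham and highest on average at SAH 7d. Plcb2 had 0.264, 0.672 and 1.03 CPM as lowest, median and highest in sham, 1.22, 1.51 and 2.0 CPM at SAH 1d and 0.905, 1.51 and 16.4 CPM at SAH 7d. SAH 1d was above sham in 6 of 6 libraries without overlap, and 5 of 6 SAH 7d libraries were above every sham library. Plcg2 had 2.57, 2.93 and 4.20 CPM in sham, 4.22, 4.81 and 5.19 CPM at SAH 1d and 3.45, 5.82 and 25.9 CPM at SAH 7d. The gap between sham and SAH 1d was narrow for Plcg2, with 4.20 CPM in sham-4 just under 4.22 CPM in SAH 1d-4. At SAH 1d the log2 fold changes were 1.22 (SE 0.27) for Plcb2 and 0.62 (SE 0.14) for Plcg2. Their means at SAH 7d rested on SAH 7d-5, which held 16.4 CPM of Plcb2 against 1.53 ± 0.684 (SD, n = 5) in the others and 25.9 CPM of Plcg2 against 5.23 ± 1.52. The log2 fold change at SAH 7d against sham was 2.59 (SE 0.74) for Plcb2 with this library and 1.20 (SE 0.35) without it. For Plcg2 it was 1.49 (SE 0.45) with it and 0.76 (SE 0.20) without it.

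**Figure D1:**
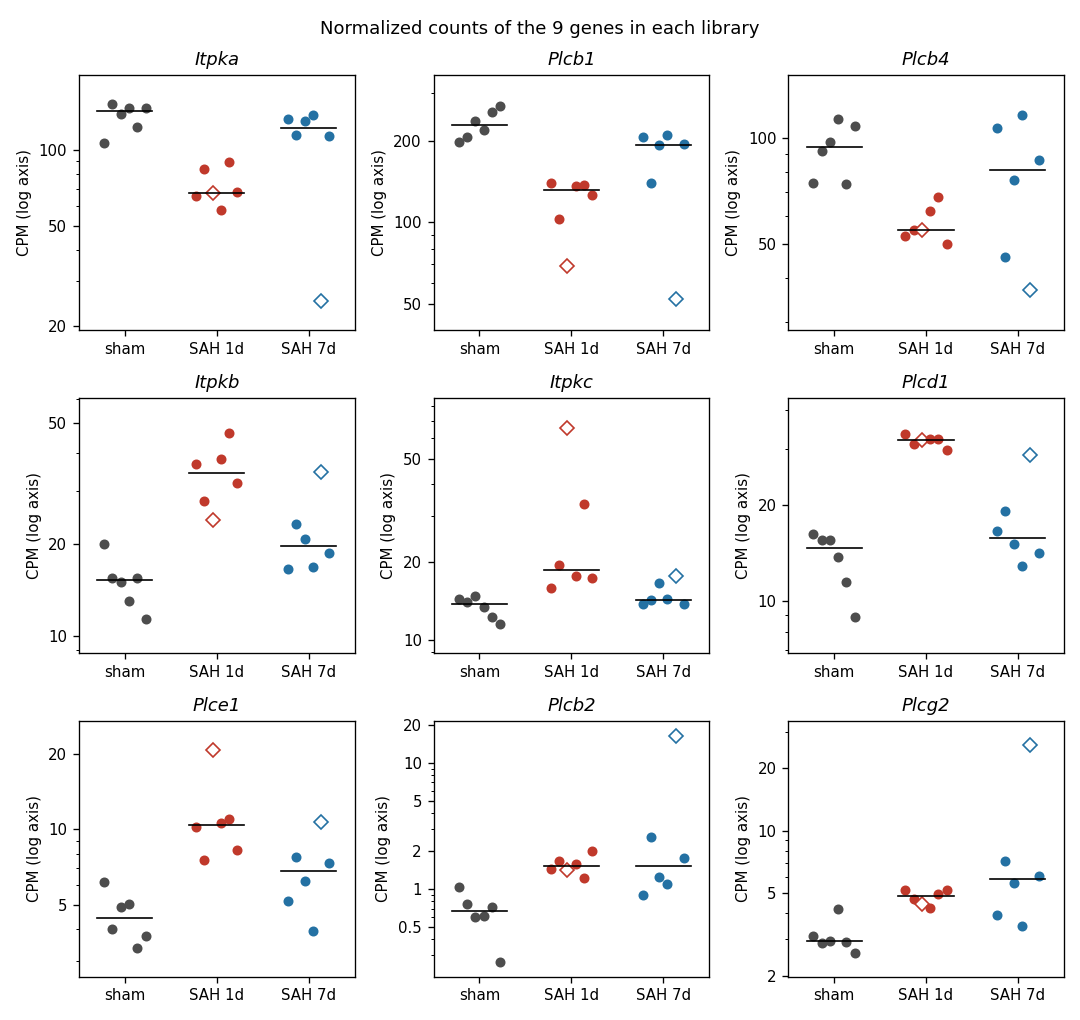
Normalized counts (CPM, log axis) of the 9 genes in each of the 18 libraries, with a line at each group's median. Open diamonds are SAH 1d-3 and SAH 7d-5. Itpka, Plcb1 and Plcb4 were lower and the other 6 genes higher in every SAH 1d library than in every sham library, and SAH 7d-5 was the highest or lowest SAH 7d library in all 9 panels.

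At SAH 1d against sham all 9 genes were called, 6 higher and 3 lower, where 25.4% of all genes tested were called, 14.9% higher and 10.5% lower. The groups did not overlap for any of the 9, against 7.89% of all genes without overlap and higher and 5.41% without overlap and lower. Since this contrast served to pick the genes, nothing is read from these counts. The median log2 fold change was 1.08 over the 9 genes and 0.0086 over all genes. Without SAH 1d-3 the same 9 genes were called, with 28.5% of all genes. With all 18 libraries in 1 fit 7 of the 9 were called, Plcb2 and Plcg2 losing their calls. Over all 18444 genes that fit called 2462, against 4684 in the fit of 12 libraries. In the lower group Itpka was 1.88-fold, Plcb1 1.94-fold and Plcb4 1.63-fold lower, and the higher group spanned 1.54-fold for Plcg2 to 2.51-fold for Plce1.

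At SAH 7d against sham edgeR called 0 of the 9 genes and 0% of all genes. Of the 9, 4 had an unadjusted p under 0.05, as had 2842 of all 18444 genes. The 9 were chosen by these values, so nothing is read from that count. The DESeq2 Wald test called Plcb2 and Plcg2, with 2.49% of all genes, and without SAH 7d-5 it called Plcg2 alone, with 2.94% of all genes. None of the 9 genes was without overlap between these groups, as were 0.797% of all genes, being higher, and 0.428%, being lower. The comparisons of SAH 1d and SAH 7d with sham share the sham libraries, so their values are set side by side here and no more.

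Between the SAH groups, Plcd1 alone was called by edgeR, where 1.37% of all genes were. It was lower in 6 of 6 SAH 7d libraries than in every SAH 1d library, as were 2.11% of all genes, with a log2 fold change of -0.84 (SE 0.18). The call depended on which libraries were used. It was lost when any 1 library other than SAH 1d-3 or SAH 7d-5 was left out. Without SAH 7d-5, 4 genes were called, Itpka and Plcb1 higher and Itpkb and Plcd1 lower at SAH 7d, with 8.38% of all genes, 3.18% higher and 5.19% lower. With SAH 1d-3 left out as well, edgeR called 5 of the 9 (adding Plce1, lower), with 13.6% of all genes, and the Wald test called 7, with 18.3%. Without SAH 7d-5 alone the log2 fold changes at SAH 7d against SAH 1d were 0.80 (SE 0.11) for Itpka, 0.66 (SE 0.17) for Plcb1, -0.83 (SE 0.16) for Itpkb and -1.04 (SE 0.10) for Plcd1. For Plcb2 this log2 fold change was 1.38 (SE 0.68) with all 12 libraries and -0.03 (SE 0.27), within its error of 0, without SAH 7d-5. Plcg2 moved from 0.87 (SE 0.44) to 0.13 (SE 0.18) on the same log2 scale.

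**Figure D2:**
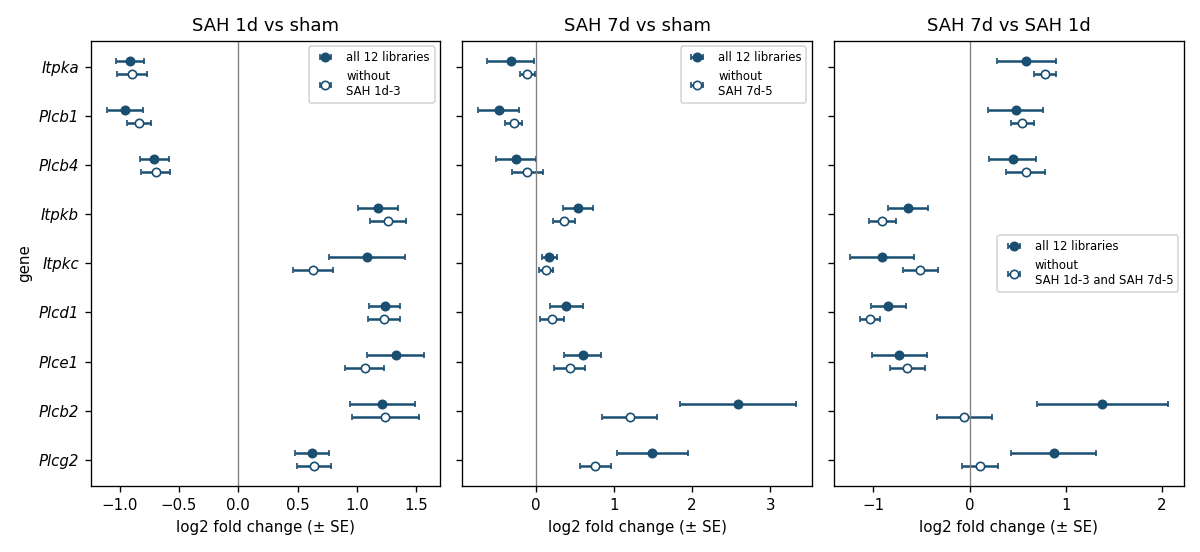
Log2 fold changes ± SE of the 9 genes in the 3 comparisons, from the edgeR fit. Filled points use all 12 libraries of a comparison and open points leave out the libraries named in each key. Plcb2 at SAH 7d against SAH 1d falls from 1.38 to -0.06 with both of these libraries left out, and no gene crosses 0 at SAH 1d against sham.

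Opposite changes of isoforms shifted the makeup of each family. Itpka made up 90.3% ± 2.28 (SD, n = 6) of the summed FPKM of the 3 kinases in sham, 69.9% ± 6.58 at SAH 1d and 81.6% ± 15.9 at SAH 7d. The sham libraries lay between 86.1% and 92.7% and the SAH 1d libraries between 58.7% and 78.1%, so the groups did not overlap. The 3 kinases were chosen by these same values, so this separation follows in part from the choice and nothing is read from it. At SAH 7d the share was 49.4% in SAH 7d-5 and 88.1% ± 1.61 (SD, n = 5) in the others. Itpkb held 4.75% ± 1.49 in sham and 15.5% ± 4.11 at SAH 1d, and Itpkc held 4.98% ± 0.819 and 14.6% ± 8.56, with 31.7% in SAH 1d-3. The summed level of the 3 kinases was 77.0 ± 9.83 FPKM in sham, 57.3 ± 8.73 at SAH 1d and 67.2 ± 20.2 at SAH 7d. In SAH 7d-5 it was 27.4 FPKM, against 67.3 to 80.5 FPKM in the other SAH 7d libraries.

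Among 15 phospholipase C genes, Plcb1 held 31.1% ± 2.67 of the summed FPKM in sham, 20.1% ± 4.26 at SAH 1d and 25.0% ± 7.35 at SAH 7d. Its share was 21.7% ± 1.84 at SAH 1d without SAH 1d-3 and 27.9% ± 2.19 at SAH 7d without SAH 7d-5. Plcd1 held 3.14% ± 0.772, 9.26% ± 0.287 and 4.98% ± 2.59 in the same order. By class, the beta forms went from 44.6% ± 2.31 in sham to 33.3% ± 3.26 at SAH 1d. The delta forms went from 10.9% ± 2.23 to 18.8% ± 1.03, and the groups did not overlap in either class. Both classes hold members chosen by these values, so nothing is read from this separation. The 15 genes included Plcl1 and the catalytically inactive Plcl2. This class held 26.6% ± 1.52 of the summed FPKM in sham and 27.7% ± 3.70 at SAH 1d. The sum over the 15 genes was 148 ± 9.41 FPKM in sham and 127 ± 4.80 at SAH 1d, with 133 ± 18.4 at SAH 7d. In SAH 7d-5 this sum was 104 FPKM, against 117 to 153 FPKM in the other SAH 7d libraries.

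**Figure D3:**
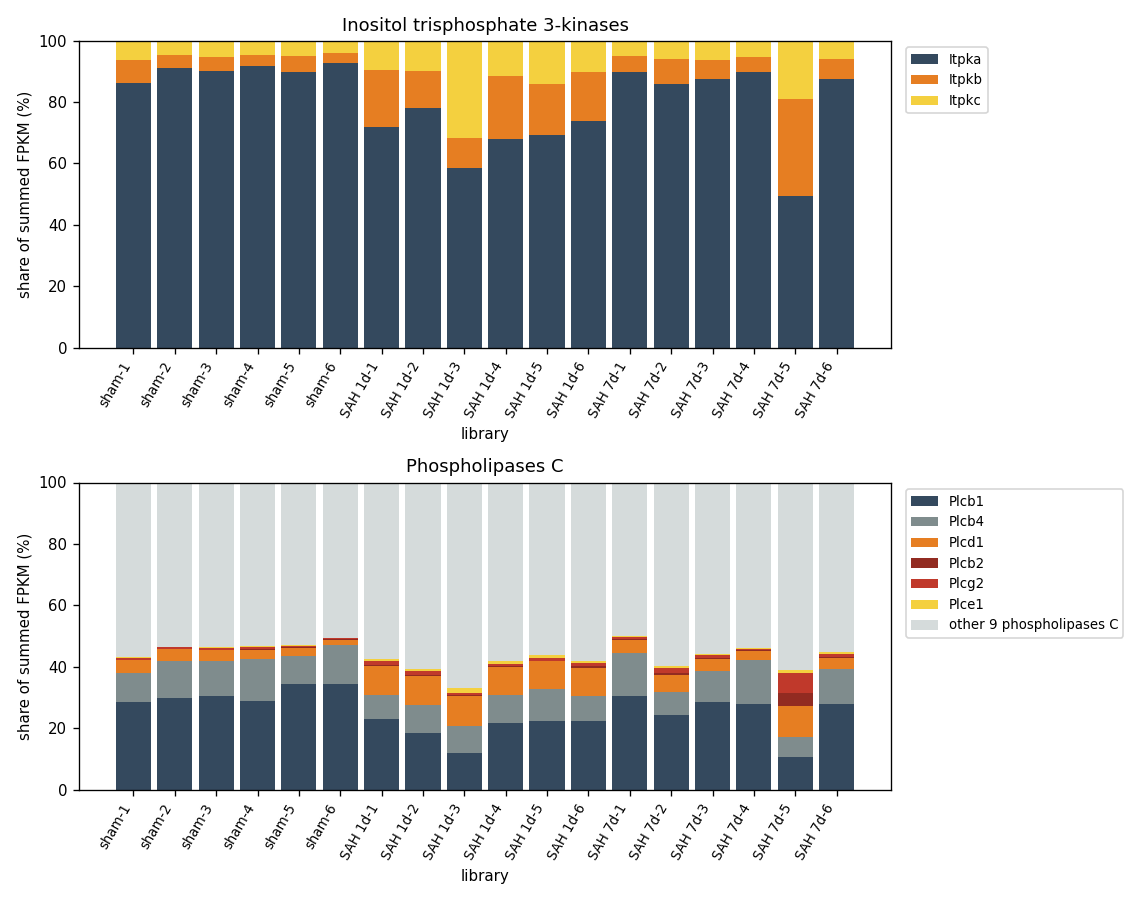
Share of the summed FPKM (percent, linear axis) held by each IP3 3-kinase (top) and each phospholipase C of the 9 genes (bottom) in every library. Itpka holds 86.1% to 92.7% of the kinase sum in sham, 58.7% to 78.1% at SAH 1d and 49.4% in SAH 7d-5.

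SAH 7d-5 was outside the range of the other 5 SAH 7d libraries for all 9 genes, above it for 6 and below it for 3. Over all genes tested 38.7% were above and 36.8% below in this library. Plcb2 stood 10.8 times and Plcg2 4.95 times as high as the mean of the other 5 SAH 7d libraries, and Itpkb, Plcd1, Plce1 and Itpkc 1.79, 1.85, 1.76 and 1.21 times as high. Itpka was 5.01-fold, Plcb1 3.62-fold and Plcb4 2.34-fold lower there. Marker lists moved in the same library. The 7 microglia markers summed to 3624 CPM against 371 to 1169 CPM in the other SAH 7d libraries, and 6 of 7 were higher there than in the other SAH 7d libraries. The 4 markers of fibroblasts of the meninges summed to 3275 CPM against 119 to 228 CPM, the 5 T cell markers to 319 CPM against 8.14 to 35.8 CPM and the 7 neutrophil markers to 220 CPM against 3.32 to 20.9 CPM. Of the T cell markers 5 of 5 were highest there among the SAH 7d libraries, but Cd8a (243 CPM) and Cd4 (71.3 CPM) made up nearly all of the sum and Cd3e, Cd3d and Cd3g reached at most 2.0 CPM. Of the neutrophil markers 5 of 7 were highest there, with Mmp8 (130 CPM) and Csf3r (89.2 CPM) making up nearly all of the sum and S100a9 at 0.70 CPM. The part of these cells in the levels of the 9 genes was not tested. The next highest microglia sum at SAH 7d, 1169 CPM, was in SAH 7d-2, the library that also came second for Plcb2 (2.61 CPM) and Plcg2 (7.13 CPM). This place was not particular to these genes. SAH 7d-2 also came second for Itpkb (23.4 CPM), Plcd1 (19.1 CPM) and Plce1 (7.73 CPM). It was second lowest for Plcb1 (139 CPM) and Plcb4 (46.0 CPM).

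At SAH 1d, when Plcb2 and Plcg2 were above sham, the summed microglia markers overlapped sham, at 409 to 513 CPM against 290 to 523 CPM, and 1 of the 7, C1qa, was above every sham library. Markers of monocytes and macrophages did not overlap, at 20.1 to 42.6 CPM in sham and 50.3 to 239 CPM at SAH 1d, or at most 61.9 CPM without SAH 1d-3, and 3 of the 6 with values were above every sham library. The summed neutrophil markers did not overlap either, at 1.92 to 6.08 CPM in sham and 6.76 to 71.2 CPM at SAH 1d, or at most 15.5 CPM without SAH 1d-3. Only 2 of 7, Csf3r and Cxcr2, were above every sham library, and S100a8, S100a9, Mpo, Elane and Mmp8 overlapped sham. Outside SAH 1d-3 most of the sum was Csf3r, at 5.26 to 9.31 CPM, and Cxcr2 reached at most 0.54 CPM. The part of these lists in the levels was not tested. B cell markers, relevant to Plcg2, were near 0, the list reaching at most 1.24 CPM in any library.

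**Figure D4:**
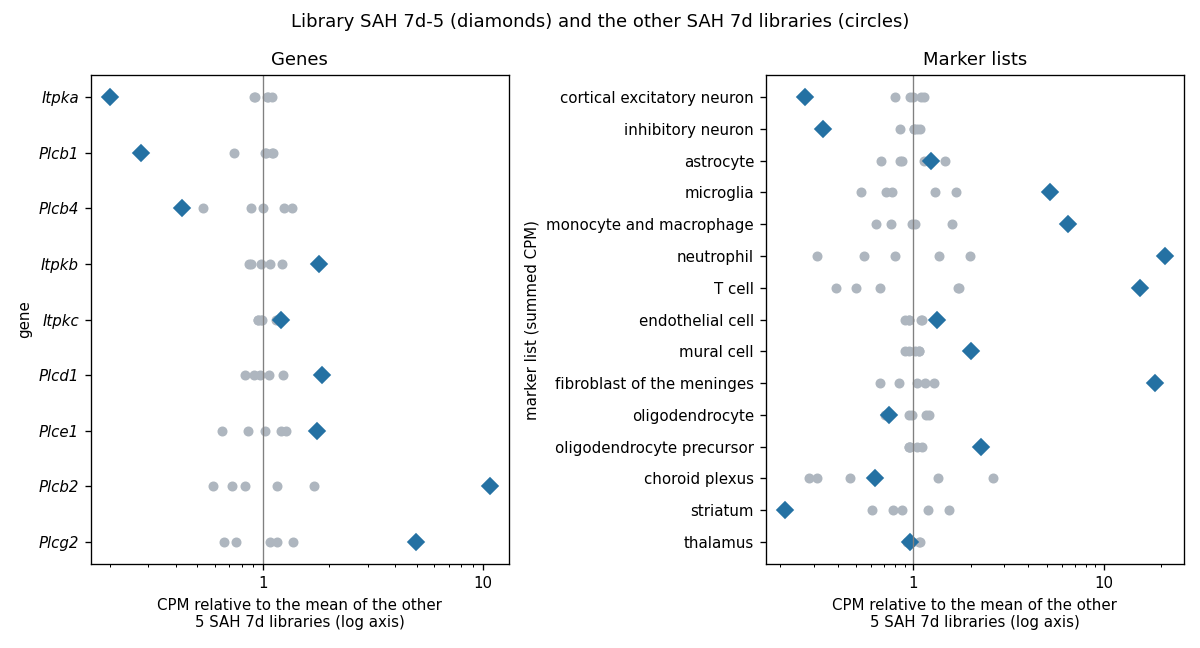
CPM of SAH 7d-5 (diamonds) and of the other 5 SAH 7d libraries (circles), each divided by the mean of those 5 (log axis), for the 9 genes (left) and for the summed CPM of the marker lists other than B cells (right). Plcb2 is 10.8 times and Plcg2 4.95 times that mean in SAH 7d-5, where the neuron and striatum lists are lowest.

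The genes with the nearest profiles differed between members. The distance was the root mean square difference of log2 CPM over the 18 libraries after centring each gene on its own mean, and it says nothing of shared control. Nearest to Itpka was Asphd1 (0.17) and to Plcb1 Nkiras1 (0.11). For Itpkb the nearest of all genes was another member, Plcd1 (0.25), and for Plcd1 it was Tead3 (0.23). Itpkc was nearest to Odc1 (0.20), the first enzyme of polyamine synthesis, and Plce1 to Ehd2 (0.20). Plcb2 was nearest to Ikzf1 (0.29), a transcription factor of lymphoid cells, and Plcg2 to the lysosomal fucosidase Fuca1 (0.19). Leaving out SAH 7d-5 kept Asphd1, Ikzf1, Ehd2 and Fuca1 in first place and replaced the nearest gene of Itpkb, Itpkc, Plcb1 and Plcd1.

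Around these enzymes, 116 other genes of the pathway were tested of 121 listed in 11 lists. At SAH 1d against sham 20 rose and 18 fell, or 32.8% against 25.4% of all genes, with a median log2 fold change of -0.09. The lists were chosen with earlier results of these data known. Nothing is therefore read from this share, or from the count of genes called in any list below. Of 8 other phospholipases C tested, Plcb3, a further Gq effector, rose by 0.72 on the log2 scale (SE 0.18, edgeR adjusted p = 0.0126) and Plcd3, a delta form, by 0.35 (SE 0.09, edgeR adjusted p = 0.0164). Plcl2, a catalytically inactive relative, fell by 0.46 (SE 0.08, edgeR adjusted p = 0.00202). The other inositol phosphate kinases gave 0 calls among 7 by edgeR, with 1 at an unadjusted p under 0.05. DESeq2 called 1 of them, Ipmk, and limma on log2(FPKM + 0.1) called Ipmk, Ippk and Itpk1.

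Upstream of phospholipase C gamma, 7 of 9 immune tyrosine kinases and adaptors rose at SAH 1d, and the list's median log2 fold change was 1.36. With all 18 libraries in 1 fit 1 of the 9, Lat2, was called, where 2462 of all 18444 genes were called and not 4684. Lat2, an adaptor of myeloid and B cells, rose by 2.16 (SE 0.28, edgeR adjusted p = 0.000309) and Tyrobp, the adaptor that TREM2 signals through, by 1.74 (SE 0.21, adjusted p = 0.000167). At SAH 7d against sham edgeR called 0 of these 9 and 0% of all genes. All 9 had an unadjusted p under 0.05, as had 2842 of all 18444 genes. DESeq2 called 7, with 2.49% of all genes, and also 7 without SAH 7d-5, with 2.94% of all genes.

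On the Gq side, 1 of 4 Gq family proteins rose, Gna15, the form of blood cells (log2 fold change 0.69, SE 0.21, edgeR adjusted p = 0.0276). It was called in 13 of 22 other settings, with adjusted p from 1.35e-05 to 0.321. Of 19 Gq-coupled receptors 3 rose and 2 fell. The bradykinin receptor Bdkrb2 went from 0.226 ± 0.0923 CPM in sham to 1.79 ± 1.46 CPM at SAH 1d (log2 fold change 2.98, SE 0.49, edgeR adjusted p = 0.00131), and its log2 fold change was 2.40 without SAH 1d-3. The UDP receptor P2ry6 rose by 1.19 (SE 0.18, edgeR adjusted p = 0.000838), and the serotonin receptor Htr2a fell by 0.94 (SE 0.16, adjusted p = 0.00166).

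Downstream, the IP3 receptor Itpr1, the main form of neurons, went from 670 ± 62.4 CPM in sham to 340 ± 55.8 CPM at SAH 1d, a log2 fold change of -0.98 (SE 0.11, edgeR adjusted p = 8.03e-05). The store calcium pump Atp2a2 fell by 0.63 (SE 0.08, adjusted p = 0.000246 by edgeR) and the store-operated channel Orai1 rose by 0.89 (SE 0.14, adjusted p = 0.00114). In all 1 gene of this list of 10 rose and 3 fell. Of 11 protein kinases C and Ras guanyl releasing proteins, the targets of diacylglycerol, 1 rose and 5 fell, with Prkcd at 1.08 (SE 0.25, edgeR adjusted p = 0.008), Prkce at -0.58 (SE 0.14, adjusted p = 0.00978) and Rasgrp1 at -0.57 (SE 0.16, adjusted p = 0.0236). Of 11 diacylglycerol kinases and lipases 1 rose and 3 fell, with the kinases Dgkb at -0.88 (SE 0.27, edgeR adjusted p = 0.0289), Dgkz at -0.73 (SE 0.17, adjusted p = 0.00788) and Dgkh at 0.60 (SE 0.19, adjusted p = 0.0335). Dgkh was called in 13 of 22 other settings, with adjusted p from 0.00826 to 0.0727.

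Synthesis, supply and breakdown of the inositides themselves came last. Of 9 genes of PIP2 synthesis only Pi4ka was called, with a fall of 0.45 (SE 0.10, edgeR adjusted p = 0.00564). Of 10 genes of inositol supply, the proton-coupled inositol carrier Slc2a13 fell by 0.70 (SE 0.12, edgeR adjusted p = 0.00179) and the lipid transfer protein Pitpnb rose by 0.38 (SE 0.09, adjusted p = 0.0109). Of 18 phosphatases 3 rose and 2 fell, among them Synj2 at -0.43 (SE 0.11, edgeR adjusted p = 0.0125) and Inppl1 at 0.42 (SE 0.11, adjusted p = 0.0127). Between the SAH groups 1 pathway gene was called, Inpp5a, which removes a phosphate from IP3 and so shares its substrate with the 3-kinases. It was lower at SAH 7d by a log2 fold change of -0.54 (SE 0.10, edgeR adjusted p = 0.0224) and was called in 17 of 23 other settings, with adjusted p up to 0.102. Without SAH 7d-5 the count of pathway genes called between the SAH groups was 17 of 116, where 8.38% of all genes were called and not 1.37%.

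**Figure D5:**
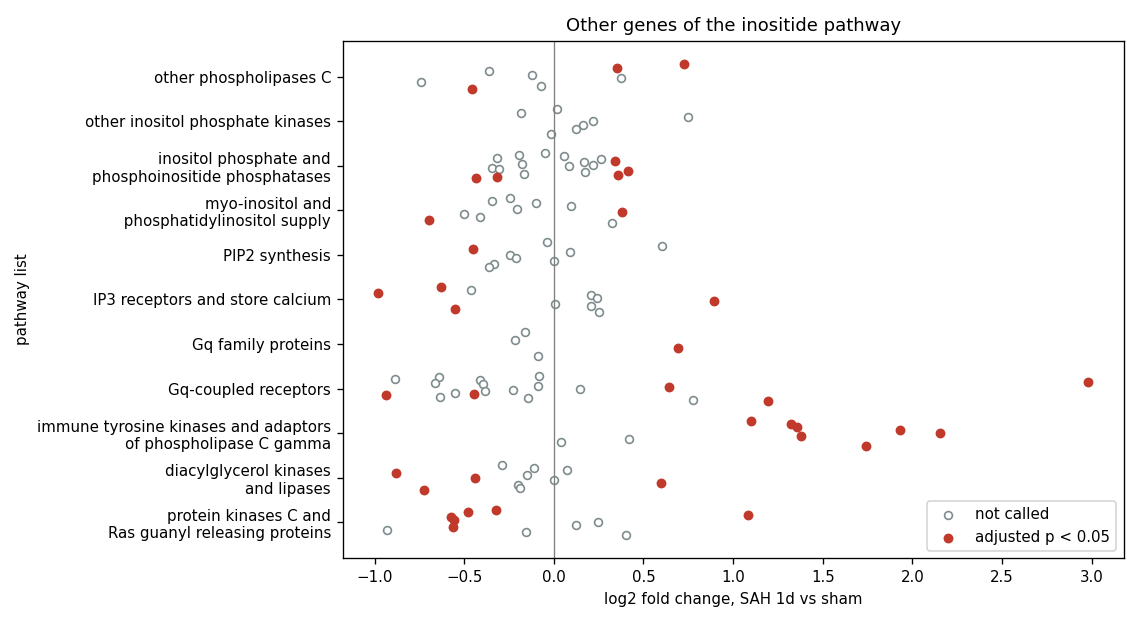
Log2 fold changes at SAH 1d against sham of the other pathway genes, 1 point per gene in rows by list, with genes called by edgeR at an adjusted p under 0.05 filled. The immune tyrosine kinases and adaptors have 7 of 9 filled, all to the right of 0, and the other inositol phosphate kinases have 0 of 7.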

How the data were processed

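Cortical RNA of 18 rats was sequenced on an Illumina platform, 6 libraries per group, and the replicate numbers and groups were taken from the labels. Read counts per gene, as the authors deposited them, were not normalized, and the authors also deposited FPKM values, which divide counts by transcript length and by mapped fragments. The methods name the rat genome Rnor_6.0 (release 95). The submitters' processing notes list mm9, a mouse build, with fastp, HISAT2 and DESeq2 1.16.1. Neither the counting program nor its strand setting is given in the sources used here. The gene members and the lists of pathway and marker genes were chosen with earlier results of these data known.

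Counts were scaled by TMM and expressed as CPM over the 18 libraries. Genes kept by filterByExpr over all libraries, 18444 of 30735, entered edgeR 4.0.16 (R 4.3.3; glmQLFit and the quasi-likelihood test), using the 12 libraries of each comparison, and p-values were adjusted by Benjamini-Hochberg over all genes tested. A gene was called at an adjusted p under 0.05. The 9 members and 116 of 121 pathway genes passed the filter. Ppip5k1, Slc5a3 and Pip4k2a and the markers Ccr2, Cd79a and Pecam1 were not analysed here, and Dgkk and Plcz1 did not pass. All 9 members were named, as was every other phospholipase C or inositol phosphate kinase called, and up to 3 called genes with the largest changes in each other list, at SAH 1d against sham and between the SAH groups; some genes that this rule names are not reported here. The samples came from separate rats, so p-values measure the spread between rats. Library totals were 27270026 to 38271014 counts.

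Alternatives were DESeq2 1.42.0 (size factors and Wald test), limma 3.58.1 on log2(FPKM + 1) and log2(FPKM + 0.1) with a minimum mean of 0.5 FPKM or no filter, other count filters, all 18 libraries in 1 fit, a replicate block, and each library left out. The Wald test without SAH 1d-3 or SAH 7d-5 was chosen after seeing the data. The scripts were tested on simulated data. Promoter windows came from RefSeq (GRCr8), and no coordinates were moved between builds.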

Additional observations from a re-analysis of the deposited data

Results flagged for a closer look

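In 7 of 30 sets of 6 libraries, the highest or lowest library stood off by more than 0.625 of the whole range of its group, a gap that chance gives in about 1 in 20 sets. The gap is given as a share of that range.

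SAH 7d-5 accounted for 4 of the 7. It had 25.0 CPM of Itpka against 113 CPM in the nearest SAH 7d library, a gap of 0.791. Plcb2 had 16.4 CPM there against 2.61 CPM, a gap of 0.89, and Plcg2 25.9 CPM against 7.13 CPM, a gap of 0.836. The share of Itpka in the summed FPKM of the 3 kinases was 49.4% against 86.0% in the nearest library, a gap of 0.908.

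SAH 1d-3 accounted for 2. Itpkc had 66.0 CPM there against 33.4 CPM in the nearest SAH 1d library, a gap of 0.65, and Plce1 20.7 CPM against 10.96 CPM, a gap of 0.742. The last was Plcg2 in sham-4, with 4.20 CPM against 3.10 CPM in the nearest sham library, a gap of 0.679.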

How the results depend on the processing

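Over 599 log2 fold changes of the 9 genes under other settings, 579 moved by less than their spread, 20 moved by more and 0 called values changed sign. The 20 belonged to Plcb2, Plcg2 and Plce1. A pseudocount of 1 FPKM lowered the log2 fold changes of these scarce genes at SAH 1d against sham, to 0.30 for Plcb2 (no filter), 0.56 for Plce1 and 0.37 for Plcg2. On log2(FPKM + 0.1) the median change of all genes at SAH 1d against sham was 0.107, against 0.0086 on counts.

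At SAH 1d against sham, leaving out 1 library gave 8 to 9 members called, the 8 without sham-5 or sham-6, and 31 to 51 other pathway genes. Over all 18444 genes it gave 3517 to 5252 called. The members were chosen on this contrast, so nothing is read from their count. With all 18 libraries in 1 fit 7 members were called, without Plcb2 and Plcg2, and 15 pathway genes and not 38. Of all 18444 genes, 2462 were called in that fit and not 4684. At SAH 7d against sham edgeR called 0 members and 0 pathway genes whichever library was left out, and 0 to 3 of all genes. The DESeq2 Wald test called 2 members and 9 pathway genes, with 459 of all genes. Without SAH 7d-5 it called 1 and 11, with 542 of all genes. At SAH 7d against SAH 1d leaving out 1 library gave 0 to 4 members and 0 to 17 pathway genes, with 102 to 1545 of all genes. The highest of these counts came without SAH 7d-5. With both SAH 1d-3 and SAH 7d-5 left out edgeR called 5 members and 24 pathway genes, with 2512 of all genes. The Wald test then called 7 and 35, with 3384 of all genes. Of pathway genes in that comparison, the Wald test on all libraries called 5, the fit of 18 libraries 5, limma on log2(FPKM + 0.1) 3, on log2(FPKM + 1) 3 and without a filter 2. Over all genes these settings called 1012, 779, 420, 414 and 393 in the same order. The cause of these differences was not tested.

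The replicate numbers did not pair the samples. Same-numbered libraries had correlated deviations above 0.1 in 0, 0 and 1 of 6 pairs in the 3 comparisons, and at most 1 of 6 correlated best with its own number. With the replicate block 9 members were called at SAH 1d against sham, where 3979 of all 18444 genes were called and not 4684. At SAH 7d against sham it called 0 members and 0 of all genes. At SAH 7d against SAH 1d it called 0 members and 0 pathway genes, where 29 of all genes were called and not 252. Leaving out 1 library moved the mean share of Itpka among the kinases to 89.8% to 91.1% in sham, 68.3% to 72.1% at SAH 1d and 80.0% to 88.1% at SAH 7d.

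Scarce counts limit Plcb2, whose sham level of 0.264 to 1.03 CPM stood for 8 to 31 counts per library.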
